A study of Mus musculus with 24 samples.

Results

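The retinoic acid machinery of cultured mouse epidermal progenitors was followed through 5 genes: the clearance enzyme *Cyp26b1*, the intracellular carrier *Crabp2*, the retinoic acid receptors *Rara* and *Rarg*, and their dimer partner *Rxra*. They were taken by symbol, as 5 of the 10818 genes in the expression table, and the choice was made with earlier results of these data known. The cells were wild-type primary keratinocytes established from newborn pups and grown in low-calcium medium on 3T3-J2 feeder fibroblasts, which are mouse cells too. All of them had been infected with lentivirus and selected with puromycin. In the shRNA experiment they carried *shScr*, a scrambled hairpin, or *shId1*, a hairpin against *Id1*. In the overexpression experiment they carried a doxycycline-inducible ID1 and were left without (-dox) or given (+dox) doxycycline for 3 days. Each of these 4 cultures was sampled in low calcium at 0 h and after 24 h in high calcium, which starts keratinocyte differentiation, so there were 8 groups of 3 libraries. Every 24 h culture had been switched, so the effects of calcium and of elapsed time cannot be told apart. No culture without the ID1 construct was given doxycycline, so the effects of doxycycline and of ID1 cannot be told apart. Induction below means +dox against -dox. The hairpin control and the -dox control differ in virus and in experiment. The libraries are labelled as biological replicates, and no source used here says whether each came from its own culture. The p-values therefore speak of the spread among these libraries, which may be technical.

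Retinoic acid, made from vitamin A inside the cell, is a long-known brake on keratinocyte cornification. CRABP2 carries it to the nucleus, where RARα or RARγ, paired with a retinoid X receptor such as RXRα, binds response elements in DNA and switches genes on when the ligand arrives. RARγ and RXRα form the main pair of the epidermis. CYP26B1, a cytochrome P450 enzyme, oxidises retinoic acid to inactive products and so sets how much of it a cell keeps. ID1 is a helix-loop-helix protein that cannot bind DNA and holds basic helix-loop-helix factors away from their E-box sites.

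Reads in the table came to between 21442371 and 35720140 per library, and the values are CPM, a gene's reads scaled to a library size adjusted by the trimmed mean of M values (TMM). *Id1* was at 60.7 to 111 in *shScr* and 19.7 to 39.0 in *shId1* cells at 0 h, and at 7.15 to 13.2 in -dox and 41.6 to 107 in +dox cells. At 24 h the *Id1* groups overlapped in the shRNA experiment (27.9 to 69.6 against 17.6 to 40.1) but not in the overexpression experiment (59.7 to 73.9 against 76.1 to 106). Libraries of a group correlated with r from 0.976 to 0.996 over 24 pairs, and shRNA libraries numbered 1 lay apart from the rest of their groups, most at 24 h (0.976 to 0.987 against 0.993 and 0.994 between the other 2). All 10 keratinocyte markers were in the table, their summed level lying between 27088 and 64630. Of 22 fibroblast markers 6 were in it (*Col5a2*, *Col6a1*, *Col6a2*, *Postn*, *Mmp2* and *Sparc*). The other 16 were not in it, *Col1a1*, *Col1a2*, *Col3a1*, *Pdgfra* and *Vim* among them. No marker of immune cells, 2 of 7 of melanocytes and 1 of 4 of endothelial cells were in the table.

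At 0 h *Cyp26b1* fell in cells with *Id1* silenced and rose in cells with ID1 induced, the only member called under either manipulation, and at 24 h neither manipulation moved any member past the limits used, a 2-fold change together with an adjusted p under 0.05. Silencing at 0 h called 1 of 5 members, against 1.94% of all 10790 genes tested, and silencing at 24 h called 0 of 5, against 3.35%. Induction at 0 h called 1 of the 4 members tested, against 5.27% of 10789 genes, and induction at 24 h called 0 of 4, against 2.11%. Over the 24 h in high calcium, 2 of 5 members were called in *shScr* cells (18.8% of all genes) and 1 of 5 in *shId1* cells (15.6%). The same step called 1 of 4 in -dox cells (30.8%) and 0 of 4 in +dox cells (25%). The effect of silencing differed between the times for 1 of 5 members (3.56% of all genes), and that of induction for 1 of 4 (3.55%). Where limma called 0 members, an unadjusted p under 0.05 was reached by 1 member in silencing at 24 h, 1 in induction at 24 h and 3 in +dox cells over time, and edgeR also called 0 in each. *Crabp2* had too few reads in the overexpression experiment to be tested there. In the shRNA experiment it passed the filter only through its 24 h libraries, so its calls over time are not independent of that filter.

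**Figure D1:**
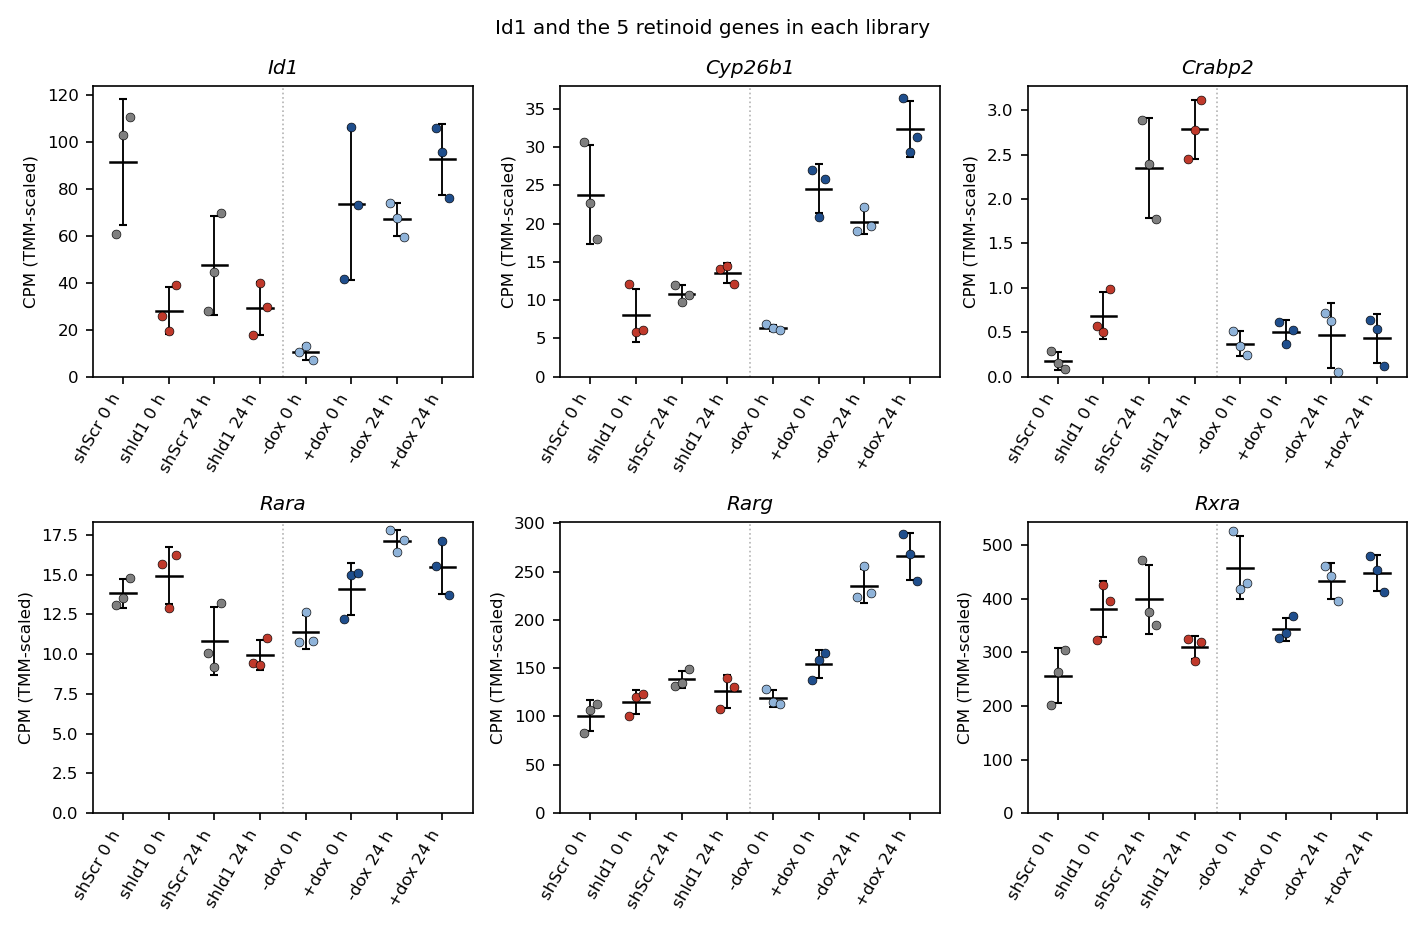
Level of *Id1* and of the 5 retinoid genes in each of the 24 libraries, in TMM-scaled CPM. Points are libraries, bars the mean and SD of 3, and the dotted line parts the shRNA from the overexpression experiment. *Cyp26b1* lies between 5.85 and 36.4 and is low at 0 h in the cultures where *Id1* is low, while *Crabp2* is above 1 only in the 6 shRNA libraries at 24 h.

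Per kilobase of exon, *Rxra* and *Rarg* were far more abundant than the other members, and the ranges of *Rara* and the enzyme *Cyp26b1* overlapped. *Rxra* group means ran from 46.9 to 83.9 CPM per kb, *Rarg* from 23.7 to 62.4, *Rara* from 2.28 to 3.92, *Cyp26b1* from 1.197 to 6.05 and *Crabp2* from 0.134 to 2.11. *Rarg* stood 7.48 to 17.6 times above *Rara* in the 8 groups, and *Rxra* 1.32 to 3.01 times above *Rarg*. The receptors were also the steadier genes: the highest group mean was 1.72 times the lowest for *Rara*, 1.79 times for *Rxra* and 2.64 times for *Rarg*. It was 5.05 times for *Cyp26b1* and 15.7 times for *Crabp2*.

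*Cyp26b1* (ENSMUSG00000063415) lies on the minus strand of chromosome 6, from 84571414 to 84593908 in GRCm38. The sequence before its start is shown because this is the member called in both manipulations of *Id1*, whose protein acts on E-box-binding factors. The bases come from RefSeq (GRCm38.p6), which starts the gene inside the longer GENCODE M21 model. The stretch before the GENCODE start, chr6:84593909-84594060, has a TATA-box motif (TATAAA, in capitals) 41 to 36 bases ahead of that start. The nearest E-box (CANNTG, in capitals) lies further in, inside the bounds of the GENCODE model, 12 to 7 bases before the RefSeq start. It is shown within the stretch chr6:84593811-84593840.
Cyp26b1 before the gene: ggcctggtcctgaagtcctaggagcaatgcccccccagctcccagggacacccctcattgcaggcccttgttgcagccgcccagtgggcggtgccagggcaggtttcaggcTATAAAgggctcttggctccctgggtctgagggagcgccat
Cyp26b1 E-box: gggctcttcctttggacaCAGCTGccagtt
In the 250 bases before the RefSeq start, read on both strands, this CAGCTG was the only E-box. E-boxes also occur in 250-base windows of *Rara* and *Rarg*, neither of which was called under a manipulation, and a CAGCTG is among those of *Rara*. Of 32851 RefSeq promoter windows of that length, 66.2% hold a CANNTG, 13.0% a CAGCTG and 12.4% a TATAAA. Retinoic acid response elements built from 2 copies of AGGTCA with 1, 2 or 5 bases between them were searched as well, and none of the 9 windows of the 4 members with an entry holds such a pair.

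In low calcium, *Cyp26b1* was at 30.7, 22.7 and 17.9 CPM in *shScr* replicates 1, 2 and 3. In *shId1* cells it was at 12.1, 5.85 and 6.10. Every silenced library was below every control library, and replicate 1 was the highest in both groups. The mean fell from 23.8 ± 6.46 to 8.002 ± 3.52 (SD, n = 3), a log2 fold change of -1.56 ± 0.25 (SE) with an adjusted p of 0.0028 by limma. Without the replicates numbered 1 it was -1.68 (adjusted p = 5.6e-05 by limma). *Id1* itself fell by 1.69 on the log2 scale (adjusted p = 0.018 by limma). The summed level of the 6 fibroblast markers was 748 to 1003 in *shScr* and 588 to 697 in *shId1* libraries. Most of it was *Sparc*, with a mean of 809 in *shScr* and 578 in *shId1* cells. *Mmp2* also had a lower mean in *shId1* cells, while *Col5a2*, *Col6a1*, *Col6a2* and *Postn* had higher ones. Of the 6 markers 0 were called, and their median log2 fold change was 0.22. The part of these markers in the result was not tested. In a bulk library fewer cells of a type and less RNA per cell cannot be told apart.

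Under the opposite manipulation *Cyp26b1* differed in the opposite direction, with doxycycline and ID1 changed together. It was at 6.82, 6.35 and 6.05 in -dox replicates 1, 2 and 3 at 0 h, the tightest group of all, and at 27.0, 20.9 and 25.9 in +dox cells. The groups lay far apart. The mean rose from 6.41 ± 0.39 to 24.6 ± 3.22 (SD, n = 3), a log2 fold change of 1.85 ± 0.12 (SE) with a limma adjusted p of 5.8e-08, which ranked 31 of 10789 genes by p. *Id1* mRNA rose by 2.72 on the log2 scale in the same libraries (adjusted p = 2.5e-06 by limma). No source used here says whether reads of the ID1 transgene are counted with *Id1*, which bears on its level in +dox cells. Fibroblast marker sums of -dox (663 to 791) and +dox libraries (727 to 818) overlapped, but 3 of the 6 markers were called, *Col6a1* (1.58) and *Col6a2* (1.26) higher and *Col5a2* (-1.48) lower in +dox cells on the log2 scale. *Kdr*, the 1 endothelial marker in the table, was at 2.99 to 3.96 in -dox and 8.50 to 9.25 in +dox cells. The part of these markers in the result was not tested.

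At 24 h the difference between silenced and control cells did not pass the test. *Cyp26b1* was at 12.02, 9.75 and 10.7 in *shScr* cells and at 14.1, 14.4 and 12.1 in *shId1* cells, the silenced libraries all slightly above the controls. The log2 fold change was 0.31, with a 95% interval from -0.23 to 0.85 and an adjusted p of 0.45 by limma. *Id1* did not pass the test at this time either (-0.67, adjusted p = 0.26 by limma). In the overexpression experiment the enzyme was at 19.0, 22.2 and 19.6 in -dox cells and at 36.4, 29.4 and 31.4 in +dox cells. The +dox libraries were again all higher, but by 0.66 on the log2 scale (adjusted p = 0.0017 by limma), which is under the 2-fold limit. *Id1* was higher by 0.46 there (limma, adjusted p = 0.23).

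The change of *Cyp26b1* over 24 h in high calcium took opposite directions in the control cultures. It fell from a mean of 23.8 to 10.8 ± 1.14 in *shScr* cells, by 1.07 on the log2 scale (adjusted p = 0.0026 by limma). This call rests on *shScr* replicate 1 at 0 h, without which the fall was 0.88 (limma, adjusted p = 0.014), and without all replicates numbered 1 it was 0.95. In -dox cells the enzyme rose from 6.41 to 20.3 ± 1.67, by 1.59 on the log2 scale (adjusted p = 1.6e-08 by limma). In *shId1* cells it was higher at 24 h by 0.80 (limma, adjusted p = 0.016), under the limit, and by 1.11 without *shId1* replicate 1 at 0 h (limma, adjusted p = 0.00066). In +dox cells it was higher by 0.39 (limma, adjusted p = 0.0086). The 2 responses differed by 2.66 on the log2 scale (adjusted p = 2.8e-07 by limma over all 24 libraries), in a comparison of the controls that was added after the values had been seen and that called 2 of 5 members, against 21% of all genes. *Id1* had a log2 difference of -0.99 in *shScr* (limma, adjusted p = 0.038) and of 2.68 in -dox cells (limma, adjusted p = 2.7e-07) over the same step. Fibroblast marker sums went from 748 to 1003 at 0 h to 314 to 375 at 24 h in *shScr* cells, and from 663 to 791 to 605 to 638 in -dox cells. Of the 6 markers, 3 were called in *shScr* cells, *Col6a1* (1.53) and *Postn* (1.07) higher and *Sparc* (-1.91) lower at 24 h on the log2 scale. In -dox cells 4 were called, *Col6a1* (2.11) and *Col6a2* (1.68) higher and *Postn* (-2.10) and *Col5a2* (-1.47) lower, and *Kdr* rose by 2.52 on the log2 scale. The part of these markers in the changes of *Cyp26b1* was not tested.

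The dependence on time was itself past the limits in both experiments. The effect of silencing on *Cyp26b1* was higher at 24 h than at 0 h by 1.87 ± 0.35 on the log2 scale (adjusted p = 0.0099 by limma). The effect of induction was lower at 24 h by 1.19 ± 0.17 (limma, adjusted p = 0.0004). Under induction the control rose and the induced cells stayed high, so the gap narrowed from 3.84-fold to 1.60-fold in the means.

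**Figure D2:**
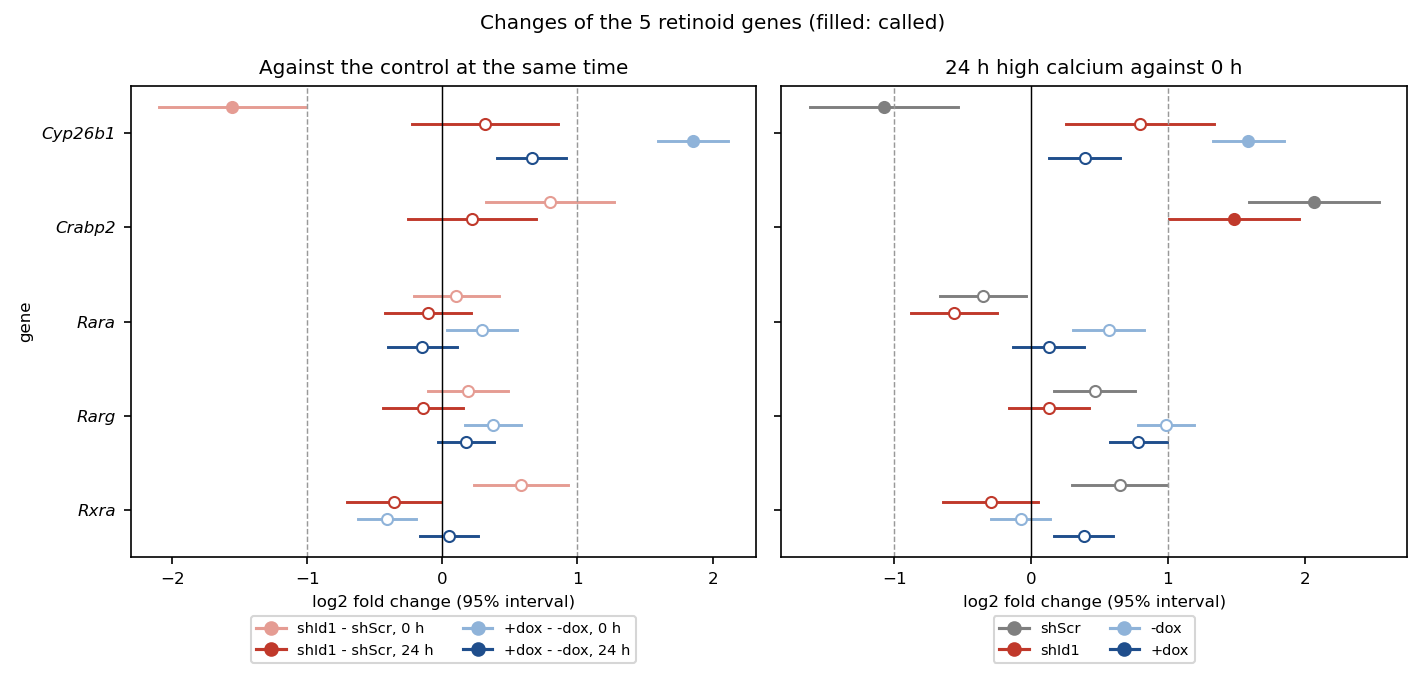
Log2 fold change of each member with its 95% interval, against the control at the same time (left) and at 24 h in high calcium against 0 h (right). Filled points passed both limits, and dashed lines mark a 2-fold change. *Cyp26b1* is at -1.56 and 1.85 under silencing and induction at 0 h, the receptors lie within 1 of 0 in all 8 contrasts, and *Crabp2* was tested in the shRNA experiment only.

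Over the 8 groups the order of *Cyp26b1* was +dox 24 h (mean 32.4), +dox 0 h (24.6), *shScr* 0 h (23.8), -dox 24 h (20.3), *shId1* 24 h (13.6), *shScr* 24 h (10.8), *shId1* 0 h (8.002) and -dox 0 h (6.41). Neighbours in this order overlapped in 4 of 7 pairs, and the other 3 breaks lay after +dox 24 h, after -dox 24 h and after *shId1* 24 h. The 2 groups lowest in *Id1*, -dox and *shId1* at 0 h, were also the 2 lowest in *Cyp26b1*. *shId1* cells at 24 h overlapped those at 0 h in *Id1* (mean 29.1 against 28.1) but were higher in *Cyp26b1* (13.6 against 8.002). They were also above *shScr* cells at 24 h in *Cyp26b1* (10.8), although the mean of *Id1* was higher in the latter (47.4). Across the 24 libraries the log2 levels of *Cyp26b1* and *Id1* had a Pearson r of 0.78 (0.73 by Spearman's rank correlation), and without the 2 libraries farthest from the median *Id1* level r was 0.72. It was 0.93 over the 12 overexpression libraries, 0.53 over the 12 shRNA libraries and 0.91 over the 8 group means. *Id1* ranked 60 of 9024 genes by this measure. Libraries of a group share their treatment, so these values are descriptions. Within *shScr* cells at 0 h and within +dox cells at 0 h the order was the reverse, with replicate 1 lowest in *Id1* and highest in *Cyp26b1*. In *shScr* cells at 24 h replicate 1 was likewise lowest in *Id1* and highest in *Cyp26b1*. For the other members r with *Id1* over the 24 libraries was -0.22 (*Crabp2*), 0.58 (*Rara*), 0.50 (*Rarg*) and -0.25 (*Rxra*). Over the 12 overexpression libraries it was 0.18, 0.83, 0.81 and -0.26 in the same order, and over the 12 shRNA libraries -0.53, 0.36, -0.07 and -0.49. The +dox *Id1* levels in these values may or may not hold transgene reads.

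**Figure D3:**
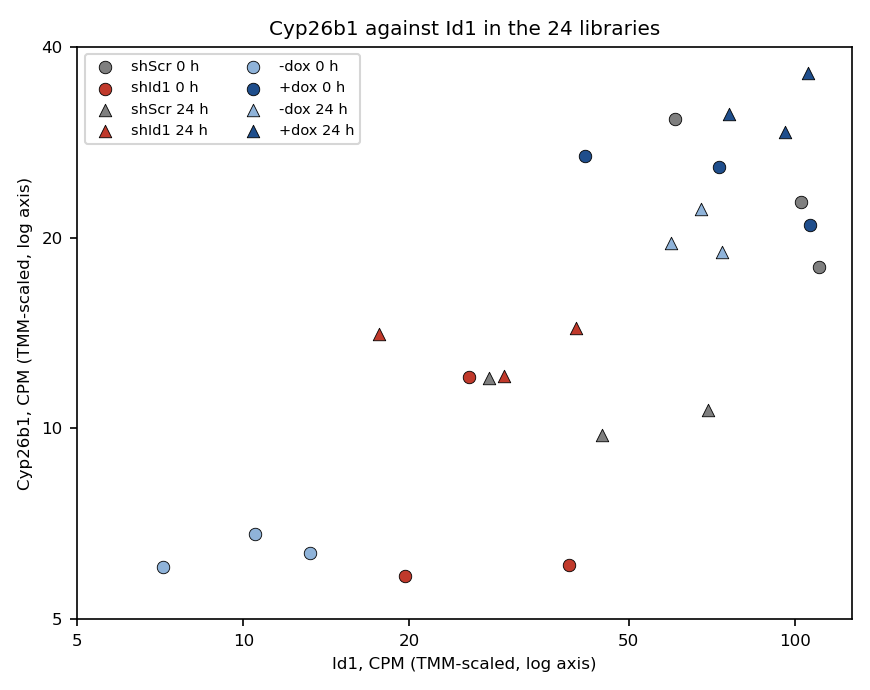
*Cyp26b1* against *Id1* in the 24 libraries, both in TMM-scaled CPM on log axes. Circles are 0 h and triangles 24 h, and colours are the 4 cultures. The libraries rise together over the whole field (r = 0.78). The -dox libraries at 0 h lie at the lower left and the +dox libraries at 24 h at the upper right. Within *shScr* cells and within +dox cells at 0 h the 3 libraries fall from left to right.

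The genes most like *Cyp26b1* over the 24 libraries were *Osbpl3* (r = 0.93), *Dlc1* (0.88) and *Fhdc1* (0.88), and the least like was *Aknad1* (-0.86). *Osbpl3* encodes an oxysterol-binding protein relative.

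*Crabp2* (ENSMUSG00000004885, plus strand of chromosome 3, 87948666 to 87953376) was the scarcest member, and its change was a response to the 24 h step in the shRNA experiment. At 0 h it was at 0.287, 0.156 and 0.0881 CPM in *shScr* cells, which is 8, 4 and 3 reads. At 24 h *shScr* cells had 2.89, 2.39 and 1.77, from 96, 56 and 38 reads. The 24 h libraries were all far above the 0 h libraries, and the ratio of the means was 13.3. On the log2(value + 0.5) scale, which understates changes of scarce genes, it rose by 2.07 ± 0.22 (limma, adjusted p = 6.9e-06). *Crabp2* passed the filter (1 or more in at least 3 libraries) only through the 24 h libraries, where it was high. Its p-values over time therefore describe a gene let in by those same values. In *shId1* cells it went from 0.570, 0.506 and 0.988 to 2.45, 2.78 and 3.12. It rose by 1.48 ± 0.22 (limma, adjusted p = 0.00012), with a ratio of the means of 4.05.

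Before the switch, the carrier was higher in every silenced library than in every control library. The mean was 0.688 ± 0.26 in *shId1* against 0.177 ± 0.10 in *shScr* cells (SD, n = 3), a ratio of 3.88. The log2 difference of 0.80 (limma, adjusted p = 0.045) was under the 2-fold limit. It depended on the treatment of low values, being 1.52 with a pseudocount of 0.1 (limma, adjusted p = 0.016) and 1.96 by edgeR on the reads (adjusted p = 0.0201), both past the limits. It was 0.34 with quantile scaling (limma, adjusted p = 0.43), and leaving out 1 library took the adjusted p to between 0.038 and 0.17 (limma). At 24 h silenced and control cells overlapped, and the difference was 0.22 with a 95% interval from -0.26 to 0.69.

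In the overexpression experiment *Crabp2* stayed near the bottom of the range at both times. It was at 0.519, 0.348 and 0.241 in -dox cells at 0 h and at 0.719, 0.629 and 0.0496 at 24 h. In +dox cells it was at 0.619, 0.362 and 0.527 at 0 h and at 0.642, 0.531 and 0.120 at 24 h. All 4 groups overlapped, with 1 to 20 reads a library. With no filter on low values the log2 differences were 0.21 and -0.02 for induction at 0 h and 24 h, and 0.08 and -0.15 for time in -dox and +dox cells, with limma adjusted p from 0.63 to 0.97. A rise as large as that in *shScr* cells was not seen here. The genes most like *Crabp2* were *Rassf6* (r = 0.87) and *Mettl7a1* (0.86), and *Vac14* was the least like (-0.88).

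*Rara* (ENSMUSG00000037992, plus strand of chromosome 11, 98927818 to 98974942) passed the limits in no comparison within an experiment. It was at 13.1, 13.6 and 14.8 in *shScr* and 15.7, 12.9 and 16.2 in *shId1* cells at 0 h, and at 10.1, 9.19 and 13.2 and 9.43, 9.34 and 11.03 at 24 h. The silenced and control groups overlapped at both times, with log2 differences of 0.10 (95% interval -0.21 to 0.42) and -0.11 (-0.42 to 0.21). The level was lower after 24 h in *shId1* cells, with no overlap, by a log2 difference of -0.56 (limma, adjusted p = 0.0056), and in *shScr* cells the difference was -0.35 (limma, adjusted p = 0.052). In the overexpression experiment *Rara* was at 10.8, 12.7 and 10.8 in -dox and 12.2, 14.95 and 15.1 in +dox cells at 0 h. At 24 h it was at 17.8, 16.4 and 17.2 in -dox and 15.5, 17.1 and 13.7 in +dox cells. It was higher at 24 h in -dox cells by 0.57 (limma, adjusted p = 0.00056) and the 4 remaining contrasts of that experiment had adjusted p from 0.078 to 0.41. A small nuclear RNA gene overlaps *Rara* on the same strand. *Khsrp* (r = 0.92), *Mllt6* (0.91) and *Impdh1* (0.91) were most like it, and *Pias1* was the least like (-0.88).

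*Rarg* (ENSMUSG00000001288, minus strand of chromosome 15, 102234938 to 102257517), the receptor gene for the main retinoic acid receptor of the epidermis, had a higher mean after 24 h in high calcium in each culture. In -dox cells it was at 129, 115 and 113 at 0 h and at 223, 256 and 228 at 24 h. The groups did not overlap, and the log2 difference of 0.99 ± 0.10 (limma, adjusted p = 2.5e-07) stopped just short of 2-fold. It passed without -dox replicate 1 at 0 h (1.04) or without -dox replicate 1 or 3 at 24 h (1.02 and 1.01). In +dox cells it was at 138, 159 and 166 and then at 289, 268 and 240.3, higher by 0.78 ± 0.10 (limma, adjusted p = 3.7e-06). The shRNA cultures showed less of this. *shScr* cells went from 82.9, 107 and 113 to 131, 135 and 149, by 0.46 (limma, adjusted p = 0.010), and *shId1* cells from 100.3, 121 and 123 to 107, 140.1 and 130.3, by 0.13 (limma, adjusted p = 0.42), with overlapping libraries.

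The differences of *Rarg* under the 2 manipulations were small. +dox cells were above -dox cells at 0 h in every library, by 0.37 (limma, adjusted p = 0.0079), and the groups overlapped at 24 h (0.17, 95% interval -0.03 to 0.38). With *Id1* silenced the difference was 0.19 at 0 h (95% interval -0.10 to 0.48) and -0.14 at 24 h (-0.44 to 0.15). *Slc25a39*, *Capn1* and *Atp13a2* followed *Rarg* over the 24 libraries with r of 0.99, 0.98 and 0.98, the highest likeness found for any member, and *Ttf1* ran opposite to it (-0.97).

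*Rxra* (ENSMUSG00000015846, plus strand of chromosome 2, 27676440 to 27762957) was the most abundant member, and in low calcium it differed in opposite senses under silencing and induction. The sequence shown is the first of its 2 RefSeq promoters, chr2:27676951-27677200 of GRCm38.p6, with its only E-box in capitals, 235 to 230 bases before the start. It is given beside that of *Cyp26b1* as the other member whose level differed under both manipulations at 0 h.
Rxra promoter: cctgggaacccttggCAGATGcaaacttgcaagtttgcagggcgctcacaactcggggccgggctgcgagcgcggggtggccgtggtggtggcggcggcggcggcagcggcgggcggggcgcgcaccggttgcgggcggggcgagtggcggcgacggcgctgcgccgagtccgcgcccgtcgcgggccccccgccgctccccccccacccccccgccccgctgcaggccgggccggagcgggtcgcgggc
G and C make up 81.2% of these bases, against 64.8% of the 250 bases before *Cyp26b1*. The other *Rxra* promoter window has no E-box and 2 single AGGTCA half-sites, a motif found in 14.0% of all windows.

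At 0 h *Rxra* was at 202, 263 and 304 in *shScr* and at 324, 425 and 395 in *shId1* cells. Every silenced library was higher, by a log2 difference of 0.58 ± 0.16 (limma, adjusted p = 0.046). In the other experiment it was at 526, 419 and 429 in -dox and at 327, 335 and 368 in +dox cells. Here every induced library was lower, by a log2 difference of -0.41 ± 0.10 (limma, adjusted p = 0.0054). Both differences were under 2-fold, as were all those of the receptors: at any fold, 3 of 5 members had an adjusted p under 0.05 in silencing at 0 h, against 7.47% of all genes, and 3 of 4 in induction at 0 h, against 34.3%. In silencing at 0 h *Crabp2* and *Rxra* lay just under that threshold. When 1 library was left out, the adjusted p of *Rxra* lay between 0.028 and 0.19 (limma), and by edgeR it was 0.051.

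At 24 h neither difference passed. *Rxra* was then at 472, 375 and 351 in *shScr* and at 325, 284 and 319 in *shId1* cells, a log2 difference of -0.36 (95% interval -0.71 to -0.01, limma adjusted p = 0.16). It was at 461, 442 and 397 in -dox and at 479, 454 and 412 in +dox cells, a difference of 0.05 (95% interval -0.16 to 0.26). Control *shScr* cells were higher at 24 h than at 0 h by 0.65 (limma, adjusted p = 0.0039) and +dox cells by 0.38 (limma, adjusted p = 0.0028). In *shId1* cells the difference over time was -0.30 (limma, adjusted p = 0.13) and in -dox cells -0.08 (limma, adjusted p = 0.50). The effect of silencing on *Rxra* was lower at 24 h than at 0 h, by 0.94 ± 0.23 on the log2 scale (adjusted p = 0.028 by limma), close to the 2-fold limit. It was past the limit without *shScr* replicate 3 at 0 h (-1.08), *shId1* replicate 1 at 0 h (-1.06) or *shScr* replicate 3 at 24 h (-1.03), and leaving out any of 7 other libraries in turn took its adjusted p to between 0.054 and 0.082. *Slc43a2* (r = 0.87), *Gnpda1* (0.85) and *Rapgefl1* (0.85) were most like *Rxra*, and *Ifrd1* was the least like (-0.88).

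The 5 members followed different patterns. Across the 24 libraries their log2 levels correlated with r between -0.61 (*Crabp2* with *Rara*) and 0.58 (*Rarg* with *Rxra*), values that share the time step and the experiment.

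Beyond the members, 68 other retinoid genes in 8 lists were looked up, and 38 of them were in the table. Few were called under either manipulation of *Id1*. Silencing called 2 of 38 at 0 h, both higher (5.26%, where all genes had 1.94%), and 1 at 24 h (2.63% against 3.35%). Induction called 4 at 0 h (10.5% against 5.27%) and 1 at 24 h (2.63% against 2.11%). The median log2 fold change of the 38 was 0.04 in silencing and 0.09 in induction at 0 h, beside 0.0036 and -0.0017 over all genes.

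The genes called at 0 h belong to different steps of the pathway. *Dgat2*, an acyltransferase of triglyceride synthesis from the list of reduction and storage genes, rose with silencing from 10.8 ± 0.99 to 30.4 ± 4.82, by 1.44 on the log2 scale (adjusted p = 0.00011 by limma). *Krt13*, a keratin under retinoid control in stratified epithelia, rose from 1.53 to 4.87, by 1.41 (limma, adjusted p = 0.032), and at 24 h from 39.7 to 199, by 2.22 (limma, adjusted p = 0.0019). With ID1 induced, *Dhrs9*, a retinol dehydrogenase, rose from 13.8 ± 1.69 to 40.4 ± 4.25, by 1.52 (limma, adjusted p = 1.0e-06). *Tgm2*, a transglutaminase gene induced by retinoic acid in many cells, rose from 18.9 to 57.3, by 1.58 (limma, adjusted p = 2.9e-06), and *Nr4a1*, an orphan receptor that can pair with RXR, rose by 1.43 (limma, adjusted p = 7.6e-06). *Fabp5*, the carrier that takes retinoic acid to PPARδ in place of the RARs, fell by 1.04 (limma, adjusted p = 2.1e-05). The 1 gene called in induction at 24 h was *Hbegf*, a growth factor gene, which fell from 94.1 to 28.2, by 1.71 on the log2 scale (adjusted p = 1.1e-05 by limma).

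The 24 h step called more of the 38: 11 in *shScr* (28.9%, beside 18.8% of all genes), 9 in *shId1* (23.7% beside 15.6%), 13 in -dox (34.2% beside 30.8%) and 7 in +dox cells (18.4% beside 25%). *Rbp2*, a cellular retinol-binding protein, *Dgat2*, *Rdh11*, a retinal reductase, and *Krt13* rose in all 4 cultures. *Rbp2* rose from 0.449 to 7.71 in *shScr* cells and from 0.958 to 18.1 in -dox cells, by 3.14 and 3.68 on the log2 scale (adjusted p = 1.9e-06 and 9.6e-11 by limma). *Cyp2s1*, a P450 enzyme whose human counterpart can oxidise retinoic acid, rose in *shScr*, *shId1* and -dox cells, by 1.48, 1.56 and 2.02 (limma, adjusted p from 3.2e-09 to 5.9e-05). *Tgm2* fell in *shScr* and *shId1* cells, by 1.42 and 1.39 (limma, adjusted p = 0.00048 and 0.00067). It did not fall in -dox cells, where the mean of *Tgm2* was 18.9 at 0 h and 34.7 at 24 h. In +dox cells its means were 57.3 and 55.7. Of 11 receptor coregulators, only *Tbl1xr1*, part of the NCoR corepressor complexes, was called in these 4 contrasts, falling by 1.38 on the log2 scale in -dox and by 1.11 in +dox cells.

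The effect of induction on 5 of the 38 genes was lower at 24 h than at 0 h (13.2%, beside 3.08% of all genes). They were *Dhrs9* (-1.92), *Hbegf* (-2.37), *Nr4a1* (-1.71), *Rbp2* (-1.43) and *Cyp2s1* (-1.30), which share this sign with *Cyp26b1* (-1.19). Of all genes called in this contrast, 332 of 383 were lower. Silencing by time called *Dgat2* (-1.45), *Dhrs3* (-1.43) and *Dhrs9* (2.06), and only *Dhrs9* among these had the sign of *Cyp26b1* (1.87).

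**Figure D4:**
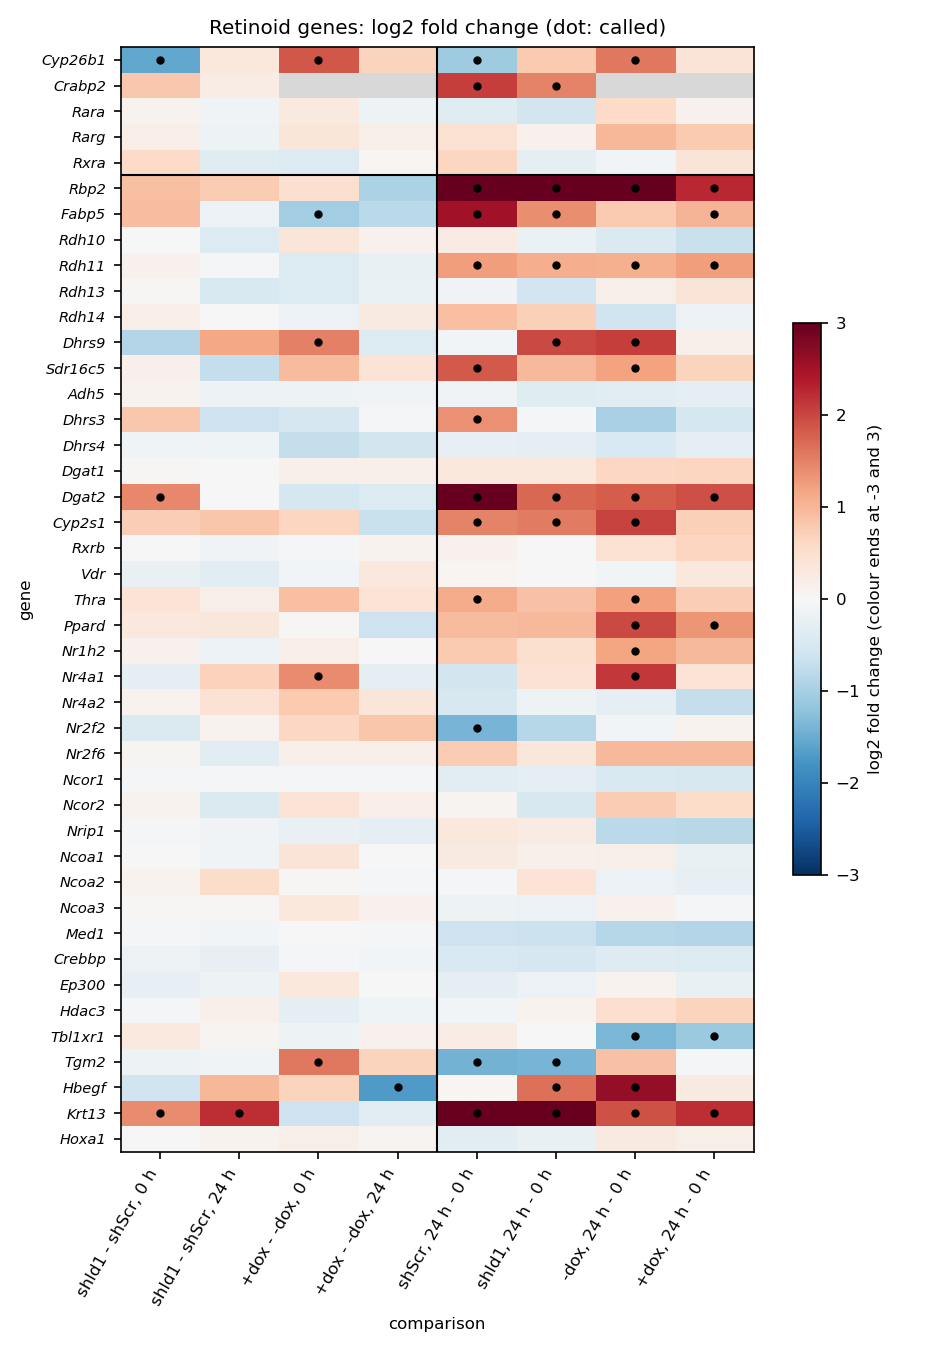
Log2 fold change of the 5 members (top) and 38 other retinoid genes (below) in the 8 contrasts within an experiment. Red is higher and blue lower in the group named before the minus sign, grey is not tested, and a dot marks a gene past both limits. *Rbp2*, *Rdh11*, *Dgat2* and *Krt13* have a dot in all 4 time contrasts on the right, and the 4 contrasts on the left hold 2, 1, 4 and 1 dots below the line.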

How the data were processed

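Stranded poly(A) libraries of 24 samples, 8 groups of 3, were sequenced by the authors, who converted base calls with bcl2fastq 2.19.1.403 and used GRCm38. The aligner, counter and annotation are not given in the sources used here. The authors deposited 1 table with a normalized signal per gene: reads scaled with edgeR TMM factors, titled FPKM but not divided by length. Every value lay within 0.05 of a whole number of reads, 1 read being worth 0.0263 to 0.0496, and the reads so recovered allowed the edgeR alternative. Control columns carry the name H2BGFP and were taken as *shScr*, the only samples left for them. No column was left unused. The table's gene IDs were matched to GENCODE M21 (10814 of 10818 found), which gave positions and exon lengths.

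Each experiment's 12 libraries shared a fit in limma 3.58.1 (R 4.3.3, trend and robust) on log2(value + 0.5), for genes at 1 or more in at least 3 libraries. A call took a Benjamini-Hochberg adjusted p under 0.05, over all genes tested, with a log2 fold change beyond 1 or -1. Interactions were tested in the same fits. edgeR 4.0.16 quasi-likelihood tests on the recovered reads were an alternative. They were fitted to each experiment's 12 libraries, and to all 24 for the comparison of the controls. At 0 h they called 248 genes in silencing and 702 in induction, against 209 and 569 by limma. Other alternatives were pseudocounts of 0.1 and 1, no filter, a filter at 5, quantile and median-ratio scaling, other sets of libraries, a block for the replicate number, weights per array, no fold limit and each library left out. Equal replicate numbers paired silenced with control libraries within a time, as a pattern in the data and not a statement of the labels: their deviations from the group means correlated in all 3 pairs, with r from 0.18 to 0.71 at 0 h and from 0.30 to 0.71 at 24 h. In the other comparisons some pairs were under 0.1. The scripts were tested on simulated data. Genes are named if they are members, *Id1*, markers, called genes of the retinoid lists (up to 4 a list and comparison) or the 3 genes most and the 1 least like a member, by Pearson r over the 24 libraries, among genes with a mean of at least 5. Of these, 1 is not reported here. The members, lists and limits were chosen with earlier results of these data known. Promoter sequences are RefSeq's (GRCm38.p6), found for 4 of 5 members. Precision is set by the spread between 3 libraries, and for *Crabp2* also by its reads.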

Additional observations from a re-analysis of the deposited data

Results flagged for a closer look

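The effect of *Id1* silencing differed between 0 h and 24 h for 2 members at any fold, by an interaction in limma. They were *Cyp26b1*, by 1.87 on the log2 scale (adjusted p = 0.0099), and *Rxra*, by -0.94 (adjusted p = 0.028). At any fold 7.51% of all genes had an adjusted p under 0.05 there. *Rxra* was under the 2-fold limit, and leaving out 1 library took its adjusted p to between 0.016 and 0.082 (limma). The effect of ID1 induction differed between the times for *Cyp26b1*, by -1.19 (adjusted p = 0.0004 by limma). In that contrast 10.5% of all genes had an adjusted p under 0.05 at any fold.

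The response to 24 h in high calcium differed between the control cultures of the 2 experiments for all 5 members at any fold. An adjusted p under 0.05 at any fold was reached by 52.8% of all genes (limma). This comparison, -dox minus *shScr*, was added after the values had been seen and was fitted over all 24 libraries with limma. With the 2-fold limit as well, it called 2 of 5 members and 21% of all genes. The difference was 2.66 for *Cyp26b1* (adjusted p = 2.8e-07), which was lower by 1.07 in *shScr* and higher by 1.59 in -dox cells. It was -1.99 for *Crabp2* (adjusted p = 0.00025), which rose in *shScr* cells from 3 to 8 reads a library to 38 to 96 and lay between 1 and 18 reads in -dox cells at either time. *Crabp2* passed the filter only through the shRNA libraries at 24 h. The receptors differed by less than 2-fold: 0.92 for *Rara* (adjusted p = 0.00032), 0.52 for *Rarg* (0.014) and -0.72 for *Rxra* (0.0038). The controls differ in virus and in experiment, and these cannot be told apart.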

How the results depend on the processing

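Over 37 settings, 1221 of 1265 recomputed values of the 50 gene results kept their direction and their side of the limits. Calls of *Cyp26b1* under silencing and induction at 0 h kept both in every setting, between -1.88 and -1.36 and between 1.78 and 1.96 when 1 library was left out. With array weights, whose estimation stopped before it converged, the sign turned for *Rara* under silencing at 24 h (0.17), induction at 24 h (0.0019) and silencing by time (0.022), and for *Rxra* over time in -dox cells (0.0028). Leaving out 1 library also turned *Rara* under silencing at 24 h (range -0.21 to 0.041), *Rxra* over time in -dox cells (-0.14 to 0.027) and *Rxra* under induction at 24 h (-0.012 to 0.11). None of these values passed the limits.

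The fall of *Cyp26b1* in *shScr* cells lay between -1.26 and -0.88 when 1 library was left out and was -0.95 without the shRNA replicates numbered 1 (adjusted p = 0.00015 by limma), under the 2-fold limit. Without those replicates 1 member was called over time in *shScr* and 2 in *shId1* cells. Leaving out 1 library gave 1 to 2 called members over time in *shScr*, *shId1* and -dox cells and in silencing by time, and 2 to 3 between the control cultures. With no fold limit, which *Cyp26b1* over time in +dox cells (0.39) then passed, there were 3 members in silencing and 3 in induction at 0 h, 1 in induction at 24 h, 4, 3, 3 and 3 over time in *shScr*, *shId1*, -dox and +dox cells, 2 in silencing by time and 5 between the control cultures. A pseudocount of 0.1 or edgeR called 2 members in silencing at 0 h, the added one being *Crabp2*. A filter at 5, which *Crabp2* did not pass, left 1 over time in *shScr* cells, 0 in *shId1* cells and 1 between the control cultures. Quantile scaling called 2 in silencing by time and 4 between the control cultures. Median-ratio scaling and array weights called 2 over time in -dox cells, the added one being *Rarg* (1.01 and 1.04).

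Over all genes, dropping the fold limit called 806 and 1577 genes in silencing and 3701 and 2330 in induction at 0 h and 24 h. Over time it called 6554, 6206, 8188 and 8056 in *shScr*, *shId1*, -dox and +dox cells. In the interactions it called 810 and 1128, and between the control cultures 5716. Dropping the limit took the share of higher genes from 72.2% to 54.0% and from 65.9% to 54.0% in silencing, and from 80.8% to 59.7% in induction at 0 h. Array weights called 661 and 592 genes in the interactions, where the report's fit called 384 and 383, and leaving out 1 of 5 libraries called 180 to 255 in silencing by time. In induction by time the share of higher genes was 13.3%, 23.9% with quantile scaling and 24.3% with array weights.

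Equal replicate numbers paired silenced with control libraries within a time. In the other comparisons the pairs were mixed: -dox with +dox libraries at 0 h had r of 0.28, 0.47 and -0.11. With the replicate number as a block, *Cyp26b1* kept its calls (adjusted p = 0.00052 under silencing and 1.2e-07 under induction at 0 h by limma), and no member's call changed in any comparison. Over all genes the block called 218 and 368 in silencing at 0 h and 24 h. Among the members depth limits *Crabp2* most, at 1 to 20 reads in the overexpression libraries.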
